A study of Mus musculus with 8 samples.

Results

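The transcripts of 10 cathepsins, the proteases of the lysosome, were followed in the quadriceps femoris (QF) of mice that lost the mitochondrial co-chaperone GRPEL1 in skeletal muscle. The genes are Ctsl, Ctsb, Ctsc, Ctsf, Ctsh, Ctsk, Ctss and Ctsz, which encode cysteine proteases, and Ctsd and Ctsa, which encode an aspartic protease and a serine carboxypeptidase. They were chosen by gene name and by presence among the 14012 genes of the count table, and presence rests on measured values, since the table holds only genes with at least 50 reads in sum. The lowest total of any gene in the table was 51 counts, and the member with the fewest reads, Ctsk, had 1207. Of the 13 other mouse cathepsins looked for, Ctso alone has a row.

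Total RNA of this thigh muscle came from 4 mice labelled knockout and 4 labelled control, with 1 library of polyadenylated RNA per mouse. The knockout label reads Grpel1 smk -/- and does not name the floxed gene, and the control label reads Grpel1 flox/flox. The study describes its floxed controls as littermates of the knockouts. By the study's methods, the knockout carries HSA-Cre-ERT2, a recombinase made under the human skeletal muscle α-actin promoter and switched on by tamoxifen, which was injected into 5-week-old mice on 5 consecutive days, so that cells other than muscle fibres are meant to keep the gene. The labels give no age, and whether the sequenced controls received tamoxifen is not stated. Where the study describes growth, its text calls the floxed littermates untreated. Its weight curves also hold tamoxifen-treated floxed mice lacking Cre, floxed Cre mice not given tamoxifen, and tamoxifen-treated wild type Cre mice. In these libraries, an effect of tamoxifen or of Cre therefore cannot be told apart from the loss of Grpel1.

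The libraries held 16017565 to 20361144 counts. The Grpel1 count itself did not separate the groups, with 64.1 to 71.2 CPM (counts scaled to a common library size) in control mice and 59.9 to 71.9 CPM in knockout mice, and so does not check the labels. At the protein level, the study reports less GRPEL1 in knockout QF, by immunoblot and by immunostaining. Abundant muscle fibre genes took up fewer reads in the knockouts. With library totals alone, the 9 fibre markers had a median log2 fold change of -0.64. On the trimmed mean scale and at the threshold used below, 6 of the 9 fell and 1 rose, against 21.1% and 23.6% of all genes. Their summed level on that scale ran from 189331 to 240755 CPM in control mice and from 63657 to 90821 CPM in knockout mice. The scaling between libraries therefore matters. Trimmed mean scaling (TMM) was used, under which all genes together had a median log2 fold change of 0.07, whereas scaling by library totals alone moved this median to 0.73. Every change below is on the TMM scale unless another is named.

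Cathepsins are made as inactive proenzymes, tagged with mannose 6-phosphate in the Golgi, carried to the lysosome by sorting receptors and activated there at low pH, where they degrade proteins delivered by endocytosis and autophagy. Cystatins and related inhibitors bind the cysteine cathepsins when these leave the lysosome. In muscle, cathepsin L is known as a protease whose transcript is induced during wasting, while cathepsin S belongs mainly to macrophages and antigen-presenting cells, and cathepsin K to osteoclasts and fibroblasts.

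Sequence lying before the start sites was read from RefSeq on build GRCm38.p6, for which 8 of the 10 genes had an entry (Ctsb and Ctsh had none). The 250 bases upstream are shown for Ctss and Ctsz, which rose in the knockouts, so that they can be set against the motif pieces that follow. The Ctss stretch is chr3:95526536-95526785 on the plus strand, and the Ctsz stretch is chr2:174439040-174439289 on the minus strand.
Ctss: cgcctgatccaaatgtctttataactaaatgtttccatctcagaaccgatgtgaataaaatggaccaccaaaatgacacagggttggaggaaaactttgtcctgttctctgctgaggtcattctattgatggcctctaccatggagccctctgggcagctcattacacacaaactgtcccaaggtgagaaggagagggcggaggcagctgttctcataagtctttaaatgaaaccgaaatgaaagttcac
Ctsz: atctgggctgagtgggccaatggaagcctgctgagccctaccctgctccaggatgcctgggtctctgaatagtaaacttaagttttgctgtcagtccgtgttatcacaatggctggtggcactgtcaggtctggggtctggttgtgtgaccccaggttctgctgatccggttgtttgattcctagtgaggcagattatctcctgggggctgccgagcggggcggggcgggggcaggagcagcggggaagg

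The letters CACGTG, the E-box core that TFEB and TFE3 bind within their longer lysosomal motif, were searched on both strands of each window of 300 bases (250 before and 50 after the start). They occurred in 7.15% of all 32851 windows, and the longer TCACGTGA, which contains them, in 0.974%. Among the members, CACGTG was in the windows of Ctsl, Ctsd, Ctsf and Ctsa, and TCACGTGA in those of Ctsd and Ctsa. The windows of Ctss, Ctsz, Ctsk and Ctsc held neither. GTCACGTG, which shares its last letters with both, was in 2.25% of all windows and again in those of Ctsd and Ctsa. TTGCATCA, an element that ATF4 binds, was in 0.895% of all windows and in no member's. Pieces of 30 bases around the matches are shown for Ctsl, the cathepsin that rose most, and for Ctsd and Ctsa, which did not pass the test, with CACGTG or TCACGTGA in capitals. They lie at chr13:64370739-64370768 (Ctsl, minus strand), chr7:142388048-142388077 and chr7:142387908-142387937 (Ctsd, minus strand), and chr2:164833757-164833786 (Ctsa, plus strand, across the later of its pair of start sites).
Ctsl: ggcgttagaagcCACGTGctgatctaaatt
Ctsd, distal: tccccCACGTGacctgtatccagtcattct
Ctsd, proximal: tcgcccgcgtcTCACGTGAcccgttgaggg
Ctsa: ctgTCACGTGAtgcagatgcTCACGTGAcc

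A match is a description of these letters and not of binding. For Ctsl, the GENCODE annotation also holds a longer transcript whose first exon begins at base 64370753 of chromosome 13, within this match, and whose second exon begins at the RefSeq start, base 64370520.

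Of the 10 cathepsins, 3 rose in the knockouts and none fell at an adjusted p under 0.01 (edgeR quasi-likelihood test, Benjamini-Hochberg adjustment over all genes). Ctsl rose about 10-fold, Ctss between 5- and 6-fold and Ctsz about 2-fold, while the other 7 did not pass. Over all genes, 44.7% passed the test, 23.6% as higher and 21.1% as lower. The same 3 cathepsins were the members whose control and knockout CPM did not overlap, against 53.4% of all genes. The median log2 fold change was 0.06 over the 10 members and 0.07 over all genes.

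**Figure D1:**
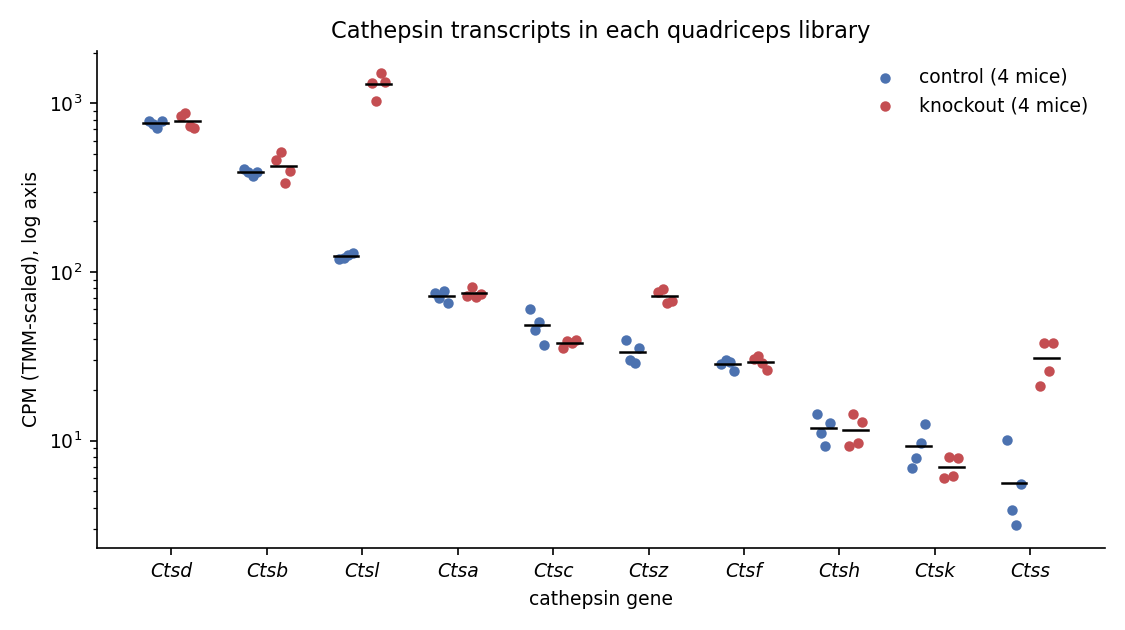
Level of each cathepsin transcript in each QF library, in TMM-scaled CPM on a log axis. Points are the 4 control (blue) and 4 knockout (red) mice, and the bar is the group mean. Ctsl, Ctsz and Ctss have groups that do not overlap, with Ctsl at 119 to 129 CPM in control mice and 1038 to 1507 CPM in knockout mice.

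Ctsl (Entrez Gene 13039, chr13:64361890-64370520, minus strand) encodes the endopeptidase cathepsin L. It had 119, 122, 126 and 129 CPM in control replicates 1 to 4, and 1329, 1038, 1507 and 1332 CPM in knockout replicates 1 to 4. The control libraries lay close together, with a coefficient of variation of 3.57%, and every knockout library was far above every control. The mean was 124 ± 4.43 CPM in control mice and 1302 ± 194 CPM in knockout mice (SD, n = 4 each). The log2 fold change was 3.39 (standard error 0.12, 95% interval 3.12 to 3.66, adjusted p = 6.91e-08 by edgeR's quasi-likelihood test), a 10.5-fold rise with an interval of 8.70 to 12.6. In raw counts, Ctsl took 0.00922% to 0.0109% of each control library and 0.138% to 0.179% of each knockout library. The change was exceeded by 161 of the 14012 genes. None of those 161 was among the 1142 genes, Ctsl included, whose control level was at least that of Ctsl.

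Ctss (Entrez Gene 13040, chr3:95526786-95556405) encodes cathepsin S, which cuts the invariant chain in antigen-presenting cells. It had 10.02, 3.86, 3.15 and 5.55 CPM in control mice and 21.2, 38.1, 25.96 and 38.2 CPM in knockout mice. Control replicate 1 was the highest control and knockout replicate 1 the lowest knockout, and a gap remained between them. The log2 fold change was 2.47 (standard error 0.33, 95% interval 1.72 to 3.21, adjusted p = 0.000133 by edgeR's quasi-likelihood test). It lay between 2.27 and 2.87 with each library left out in turn.

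Ctsz (Entrez Gene 64138, chr2:174427494-174439039, minus strand) encodes cathepsin Z, a carboxypeptidase that can also bind integrins. It had 39.3, 30.2, 28.7 and 35.5 CPM in control mice and 76.3, 79.5, 65.5 and 67.0 CPM in knockout mice, with no overlap. The log2 fold change was 1.11 (standard error 0.11, 95% interval 0.86 to 1.36, adjusted p = 1.83e-05 by edgeR's quasi-likelihood test). Its span in the table shares 9 bases with that of Nelfcd on the other strand.

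Ctsd, Ctsb, Ctsa and Ctsf did not pass the test. Ctsd (Entrez Gene 13033, chr7:142375916-142387870, minus strand), the aspartic protease, had 788, 754, 715 and 789 CPM in control mice and 843, 878, 729 and 711 CPM in knockout mice. The knockout libraries lay on both sides of the controls. The log2 fold change of 0.05 had a 95% interval of -0.15 to 0.26, or 0.9004-fold to 1.196-fold. Ctsb (Entrez Gene 13030, chr14:63122462-63145923), an endopeptidase that also trims from the carboxyl end, had 408, 389, 370 and 393 CPM in control mice and 461, 518, 336 and 395 CPM in knockout mice. Its spread was wider in the knockouts, with a coefficient of variation of 18.5% against 4.06%, and the groups overlapped. The log2 fold change was 0.13 (interval -0.14 to 0.41). Ctsa (Entrez Gene 19025, chr2:164832872-164841032), the carboxypeptidase that shields β-galactosidase and neuraminidase in a complex, ran from 65.5 to 77.4 CPM in control mice and from 71.3 to 81.6 CPM in knockout mice, with a log2 fold change of 0.06 (interval -0.11 to 0.23). Ctsf (Entrez Gene 56464, chr19:4855129-4860912), which carries a cystatin-like domain in its long propeptide, ran from 25.7 to 29.98 and from 26.2 to 31.9 CPM, with a log2 fold change of 0.05 (interval -0.13 to 0.23). Adjusted p of these 4 genes lay between 0.376 and 0.636 in edgeR's quasi-likelihood test. Spans in the table overlap on opposite strands by 774 bases between Ctsb and Fdft1, by 725 between Ctsa and Neurl2, and by 1515 between Ctsa and Pltp. The use of strand in the authors' counting is not stated, so reads of such pairs may not be separable.

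The remaining 3 members had levels at or below those of the controls on average. Ctsc (Entrez Gene 13032, chr7:88278085-88315861) encodes the dipeptidyl peptidase that activates serine proteases of immune cell granules. It had 60.1, 45.4, 50.4 and 37.1 CPM in control mice and 35.4, 38.8, 37.9 and 39.7 CPM in knockout mice, so that control replicate 4 lay inside the narrow range of the knockouts. Its log2 fold change was -0.34 (interval -0.63 to -0.06, adjusted p = 0.0384 by edgeR's quasi-likelihood test), and without control replicate 4 it was -0.45 with an adjusted p of 0.00375, past the threshold. Ctsk (Entrez Gene 13038, chr3:95499210-95509387), the collagen-degrading protease of osteoclasts, had 6.87, 7.92, 9.73 and 12.5 CPM in control mice and 6.004, 8.01, 6.15 and 7.87 CPM in knockout mice. These overlapped, and its log2 fold change was -0.41 (interval -0.83 to 0.02, adjusted p = 0.0906 by the same test). Ctsk and Ctss are neighbours on chromosome 3 with 17398 bases between their spans, and their log2 fold changes were -0.41 and 2.47. Ctsh (Entrez Gene 13036, chr9:90054267-90076095), mainly an aminopeptidase, ran from 9.23 to 14.5 and from 9.26 to 14.4 CPM, with a log2 fold change of -0.04 (interval -0.44 to 0.36). Ctso, the cathepsin with a row that is not among the 10, had 11.5 ± 1.2 CPM in control mice and 10.6 ± 1.39 CPM in knockout mice (SD, n = 4 each), and its log2 fold change was -0.12.

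**Figure D2:**
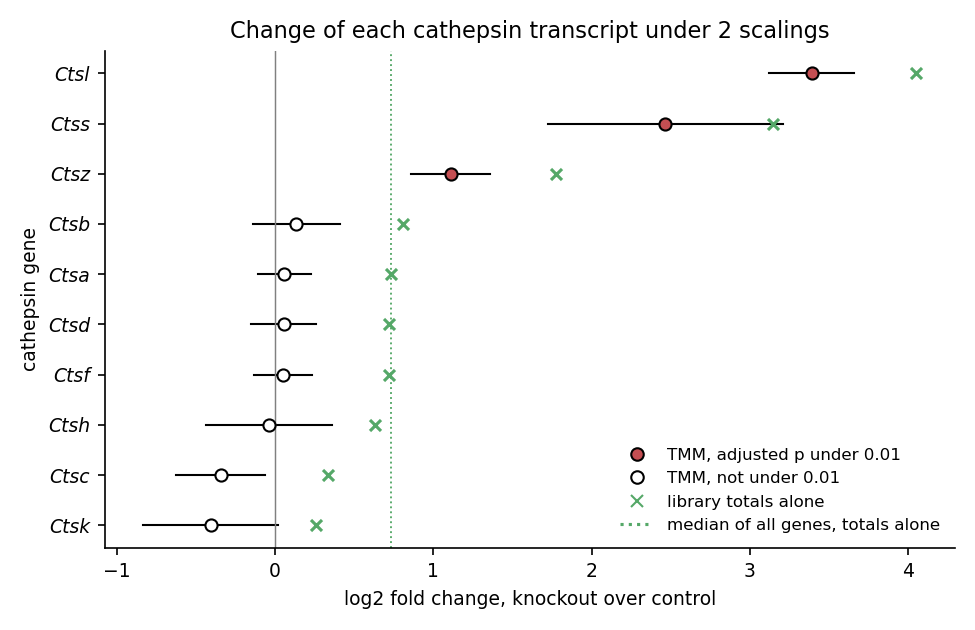
Log2 fold change of each cathepsin transcript, knockout over control. Circles with 95% intervals are on the TMM scale (filled where the adjusted p is under 0.01), and crosses show the same genes scaled by library totals alone, with the median of all genes on that scale, 0.73, as a dotted line. Ctsl, Ctss and Ctsz lie above that line under both scalings, while the crosses of the other 7 lie between 0.26 and 0.81.

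Scaling by library totals alone changed the count of cathepsins that passed from 3 to 7, all higher, where 60.6% of all genes passed as higher. On that scale Ctsl, Ctss and Ctsz had log2 fold changes of 4.05, 3.15 and 1.78, which are 3.32, 2.41 and 1.05 above the median of all genes. Ctsb, Ctsa, Ctsd and Ctsf then had 0.81, 0.73, 0.72 and 0.72, close to that median. The signs of Ctsh, Ctsc and Ctsk turned from negative to 0.63, 0.33 and 0.26, all below it.

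Shares within a library do not depend on the scaling between libraries. Counts were divided by the deposited exon width of each gene as an allowance for length, and each member was taken as a share of the 10. These widths run from 1360 bases (Ctss) to 11061 (Ctsc), with 3509 for Ctsl and 1954 for Ctsd. They may differ from the lengths of the transcripts present. Comparisons between genes, here and per kilobase below, depend on them. Ctsd made up 66.5% ± 0.59 of the cathepsin transcripts in the controls and 40.9% ± 3.48 in the knockouts, and Ctsl 6.04% ± 0.37 and 37.6% ± 5.84 (SD, n = 4 each). Per library, the Ctsl share was 5.56%, 6.02%, 6.46% and 6.12% in the controls and 37.0%, 29.8%, 43.6% and 39.9% in the knockouts. In knockout replicates 3 and 4 it was above the share of Ctsd in the same library, and in knockout replicates 1 and 2 below it. That split depends on the division by exon width. In raw counts Ctsl was above Ctsd in every knockout library, with 31883 against 20215 in replicate 1 and 22674 against 19164 in replicate 2. The share of Ctsb was 14.0% ± 0.19 in the controls and 9.11% ± 1.58 in the knockouts, and that of Ctss 0.698% ± 0.35 and 2.31% ± 0.69.

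**Figure D3:**
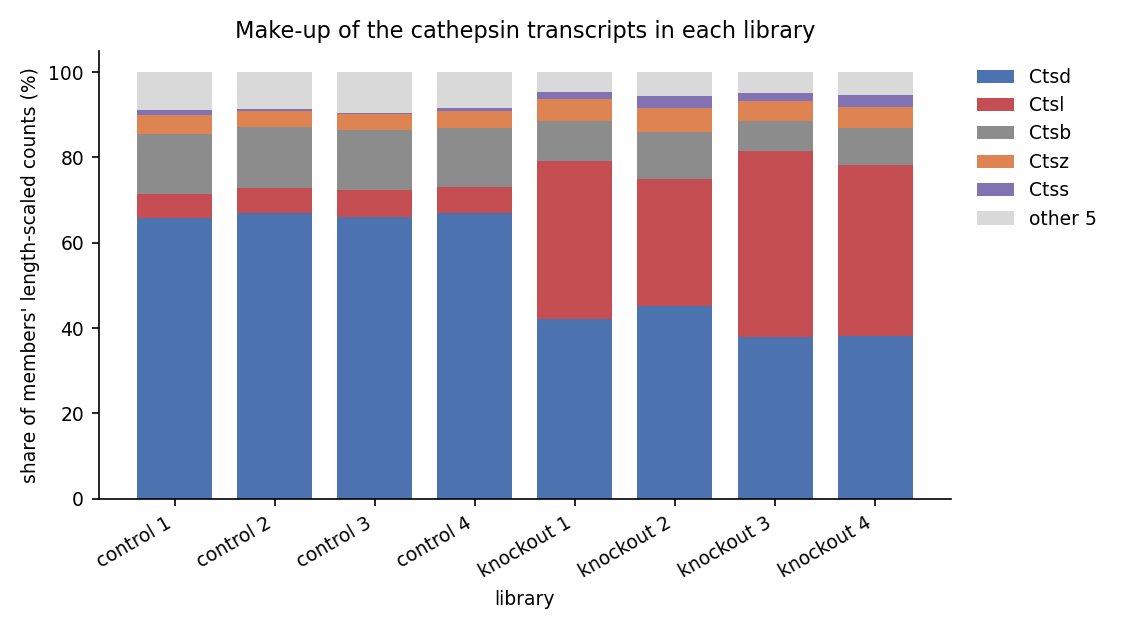
Make-up of the cathepsin transcripts in each library, as the share of each member in the length-scaled counts of all 10 (%). Ctsd is 65.9% to 67.0% of each control bar, and Ctsl widens from 5.56% to 6.46% in the controls to 29.8% to 43.6% in the knockouts.

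Per kilobase of exon, the level of Ctsl rose from 35.4 ± 1.26 CPM to 371 ± 55.3 CPM, and the sum of all 10 from 586 ± 25.9 to 989 ± 29.8 CPM (SD, n = 4 each). Without Ctsl, the sum was 551 ± 26.2 CPM per kilobase in the controls and 618 ± 65.8 in the knockouts, with ranges that overlapped (518 to 578 and 556 to 698). In the controls the order of level per kilobase was Ctsd, Ctsb, Ctsl, Ctsz, Ctsa, Ctsf, Ctsh, Ctsk, Ctsc and Ctss. Neighbouring ranges overlapped for Ctsz and Ctsa and for each step from Ctsh down to Ctss. In the knockouts Ctsl stood beside Ctsd at the top, with overlapping ranges (296 to 429 and 364 to 449 CPM per kilobase), and Ctss moved from the 10th to the 5th place, where its range overlapped that of Ctsa. Among all genes of the table, Ctsl was the 1611th by level per kilobase in the controls and the 130th in the knockouts, while Ctsd was the 125th and the 116th.

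The pattern of Ctsl over the 8 libraries was most like those of Slc6a9, a glycine transporter, Map1b, a microtubule protein, and Pck2, the mitochondrial phosphoenolpyruvate carboxykinase. Likeness was the root mean square difference in log2 CPM after subtracting each gene's control mean, among 9789 other genes with a mean of at least 5 CPM, and was 0.13, 0.17 and 0.23. The log2 fold changes of these 3 genes were 3.41, 3.45 and 3.60. Because only the control mean is subtracted, this measure is set mainly by the size of the change between groups. The places below therefore largely restate the fold changes. Ctss was the nearest cathepsin, in the 108th place with 0.83, and Ctsz came in the 576th with 1.62. For Ctsk, the member with the lowest log2 fold change, the nearest were Marcks, Tmod3 and Tgm4, with differences of 0.11, 0.12 and 0.13.

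Inhibitors of cathepsins moved in both directions. Beside the counts of this list and of those that follow, 23.6% of all genes passed as higher and 21.1% as lower. Of the 6 in the table, 1 rose and 3 fell, with a median log2 fold change of -0.62 (0.03 with library totals alone). Cstb, which encodes the cytosolic inhibitor cystatin B, rose from 5.78 ± 1.24 to 33.7 ± 6.01 CPM (SD, n = 4 each), or by 2.55 on the log2 scale (adjusted p = 1.51e-06, edgeR). Cst3, the secreted cystatin C, fell from 442 ± 52.2 to 201 ± 21.6 CPM, a log2 fold change of -1.14 (adjusted p = 1.3e-05, edgeR), and Cst6, another secreted cystatin, had -0.85. Cst3 also fell when the libraries were scaled by totals alone (-0.46), but Cst6 did not pass on that scale (-0.18). Cst7, Stfa1, Stfa2, Stfa3 and Serpina3g have no row.

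The other lysosomal peptidases were also mixed, with 2 of 6 higher, 1 lower and a median of -0.26 (0.40 with library totals alone). Scpep1, a serine carboxypeptidase related to cathepsin A, rose by 1.95 on the log2 scale to 56.1 ± 4.55 CPM from 14.5 ± 2.07 CPM (SD, n = 4 each), and Lgmn, the asparaginyl endopeptidase that cleaves cathepsin precursors to their mature chains, rose by 0.95. Tpp1, a tripeptidyl peptidase, fell by 0.32 on the TMM scale but passed as higher with library totals alone (0.35, adjusted p = 0.000675, edgeR). On the TMM scale without control replicate 2, its adjusted p was 0.01005.

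Of 9 genes that carry cathepsins to the lysosome, 3 rose and none fell, with a median of 0.16. M6pr, the small mannose 6-phosphate receptor, rose by 0.53, and Gga2, an adaptor that loads such receptors into vesicles, by 0.57. Of 7 lysosomal membrane genes, 3 rose and 1 fell, with a median of 0.03. Cd63 rose by 1.55 and Lamp2, needed for chaperone-mediated autophagy, by 1.30, whereas Npc1, the cholesterol exporter, fell by 0.95 and did not pass with library totals alone (-0.28).

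Of the 6 partners of single cathepsins, 1 rose and 1 fell, with a median of 0.42. Ifi30, the lysosomal thiol reductase that protects cathepsin S, rose by 1.55, and Psap, the precursor of saposins that cathepsin D cleaves, fell from 1128 ± 65.3 to 645 ± 52.8 CPM (SD, n = 4 each), by 0.81 on the log2 scale, which was -0.13 and not past the threshold with library totals alone. Neu1 and Glb1, the enzymes that cathepsin A shields, had log2 fold changes of 0.16 and 0.81, Grn, the progranulin that cathepsins cut, had 0.68, and Cd74, the invariant chain cut by cathepsin S, had -0.03. None of these 4 passed. The adjusted p was 0.0161 for Glb1, but 0.00903 without control replicate 4, 0.00809 by DESeq2 and 0.000886 with library totals alone. It was 0.0114 for Grn, but 0.00371 without control replicate 1, 0.00317 by DESeq2 and 0.000329 with library totals alone. Neu1 also passed with library totals alone (0.83). Of the serine proteases that cathepsin C activates, 3 of 7 had a row and none passed, with a median of 0.18.

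**Figure D4:**
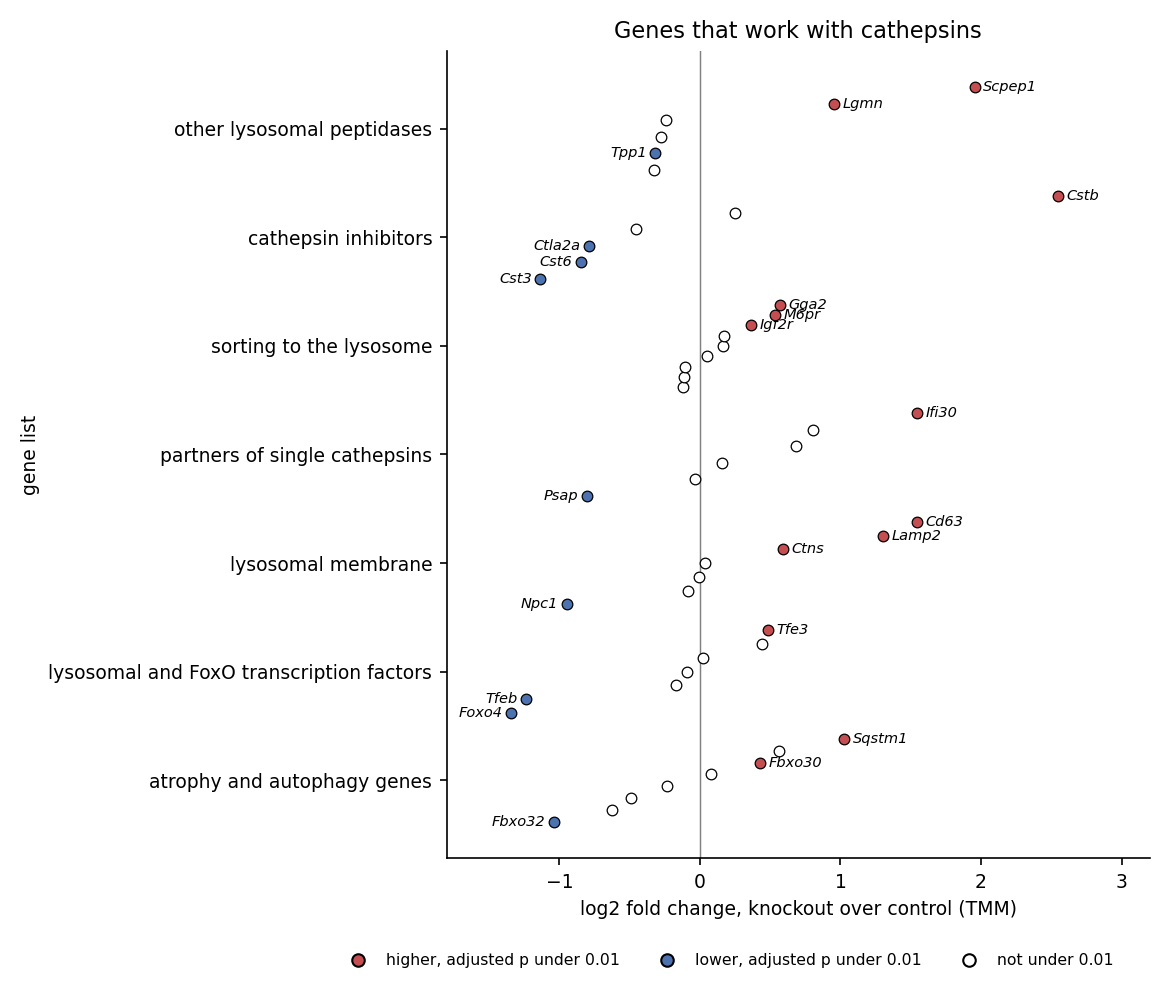
Log2 fold change (TMM scale) of genes that inhibit, sort, partner or control cathepsins, or act beside them, with 1 point per gene. Red and blue points passed at an adjusted p under 0.01 as higher and lower, and white points did not. Cstb lies farthest to the right at 2.55, and Foxo4 farthest to the left at -1.34.

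Factors that control lysosomal and atrophy genes showed 1 rise and 2 falls among the 7 with a row, with a median of -0.09 (0.58 with library totals alone). Tfeb, the regulator of lysosome genes, fell from 80.9 ± 5.34 to 34.3 ± 2.6 CPM (SD, n = 4 each), by 1.24 on the log2 scale (adjusted p = 1.06e-06, edgeR), and Foxo4 by 1.34, while the related Tfe3 rose by 0.48. Tfec has no row. Of 8 atrophy and autophagy genes, 2 rose and 1 fell, with a median of -0.08 (0.58 with library totals alone). Sqstm1, the autophagy receptor p62, rose by 1.03 on the log2 scale and the atrophy ubiquitin ligase Fbxo32 fell by 1.04, a fall that did not pass with library totals alone (-0.39). Fbxo30 rose by 0.43 (adjusted p = 0.00721, edgeR), but its adjusted p was 0.0153 to 0.0339 without any 1 of control replicates 1, 2 and 4 and knockout replicates 1, 3 and 4, and 0.0138 with RLE size factors.

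Ctss and several other members are high in immune cells, so the markers of these cells are given beside them. In bulk tissue, more cells of a type and more RNA per cell cannot be told apart. All 12 macrophage markers were present, with at least 5 counts in each library. Of these, 2 rose and none fell, against 23.6% and 21.1% of all genes. Their median log2 fold change was 0.92. Their summed level was 89.1 to 236 CPM in control mice and 186 to 352 CPM in knockout mice, and these ranges overlapped. Cd68, a lysosomal membrane protein of macrophages, rose by 2.62, and Aif1 by 1.54, with an adjusted p of 0.00859 that went to between 0.0104 and 0.0289 without any 1 of control replicates 2, 3 and 4 or knockout replicates 2, 3 and 4. Control replicate 1 had the highest macrophage sum among the controls as well as the highest Ctss.

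The level of Ctss as a percentage of the macrophage sum of the same library was 4.25%, 3.67%, 3.53% and 3.27% in the controls and 11.4%, 10.8%, 12.01% and 13.6% in the knockouts. The groups were apart on this measure, which was chosen after the values were seen and is independent of scaling. It does depend on the markers summed. Cd68 alone had a log2 fold change of 2.62, above the 2.47 of Ctss, while every other marker had a smaller one than Ctss. Ctsz ran from 16.7% to 32.2% of the macrophage sum in the controls and from 22.6% to 40.9% in the knockouts, so that its groups overlapped on this measure. Ctsl ran from 50.6% to 141% and from 295% to 713%, with no overlap. What part the number of macrophages had in these rises was not tested.

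**Figure D5:**
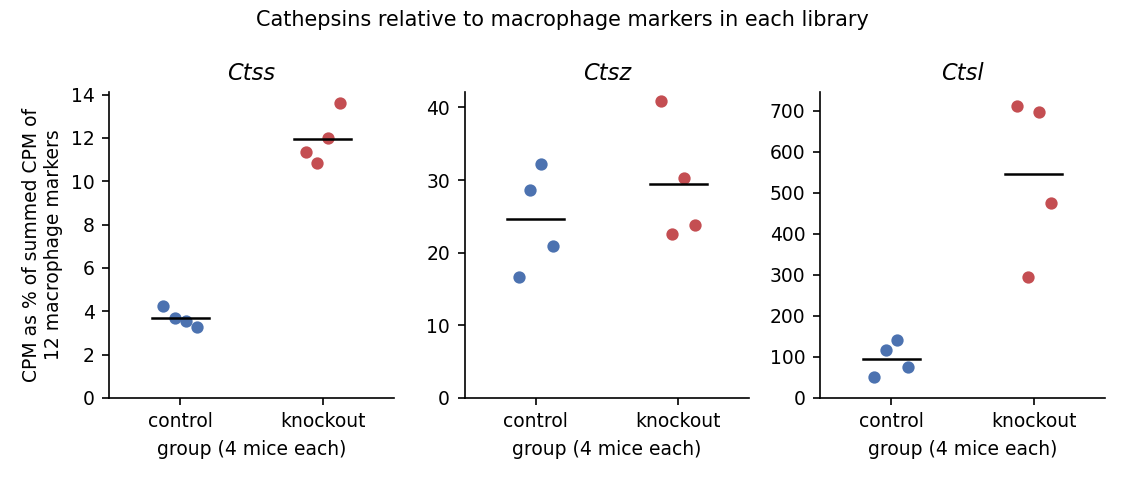
CPM of Ctss, Ctsz and Ctsl as a percentage of the summed CPM of 12 macrophage markers in the same library (linear axes from 0). Points are mice and bars are means of 4. The groups are apart for Ctss (3.27% to 4.25% and 10.8% to 13.6%) and Ctsl, and overlap for Ctsz.

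Of the 6 antigen-presenting cell markers in the table, 1 rose and none fell, with a median of 0.02. Itgax rose by 3.54 from 0.441 CPM, and Ciita, which drives MHC class II genes, had -0.77 and did not pass, although its adjusted p was 0.0086 without knockout replicate 4. Flt3 has no row. For Ctsk, the osteoclast markers Dcstamp and Ocstamp have no row, and of the other 3 none rose and 2 fell (Mmp9 by 2.09 and Calcr by 1.83, each with a mean below 3 CPM in both groups). Acp5, the more abundant marker, had a log2 fold change of 0.20 and did not pass. It had 12.9 ± 8.68 CPM in control mice and 14.8 ± 7.6 CPM in knockout mice (SD, n = 4 each). The adjusted p of Mmp9 was 0.00818, and 0.013 to 0.0222 with any 1 library other than control replicate 3 left out, and its log2 fold change was -1.46 without control replicate 1. With library totals alone neither Mmp9 (-1.43) nor Calcr (-1.16) passed. Fibroblast markers fell in 4 of 7 cases and rose in none, against 21.1% and 23.6% of all genes. Their median of -0.52 became 0.15 with library totals alone. The falls were led by the collagen genes Col1a1 (by 1.92) and Col3a1 (by 1.38), while Lum had 0.42 and did not pass. By Sirius Red staining, which reads collagen in tissue and not transcripts, the study reports fibrosis in knockout QF. With library totals alone Col1a1 still passed (-1.24), Col3a1 did not (-0.71), and the remaining falls, of Dpt and Dcn, became -0.13 and 0.15. On the TMM scale the summed level of the list was 1377 to 1904 CPM in control mice and 562 to 823 CPM in knockout mice. The part of these cells in the level of Ctsk was not tested.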

How the data were processed

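Libraries of QF muscle, 1 per mouse, were compared between the knockout and control labels (4 each). The deposited counts are raw; the authors obtained them per gene from paired reads of polyadenylated RNA (NEBNext Ultra II Directional kit) with bcl2fastq 2.20.0.422, cutadapt trimming, STAR 2.5.4b alignment to GRCm38 (versions from the submitters' processing notes) and Rsubread counting on exons, after leaving out duplicate, chimeric, multimapping and poorly mapped reads, and genes under 50 reads in all were dropped. The annotation release and the use of strand in counting are not given in the sources used here. The deposited exon widths, in bases and of another unit than the counts, were used per the file headers for levels per kilobase. The authors' fold changes, p-values and FPKM were not used.

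All 14012 genes were tested with edgeR 4.0.16 (R 4.3.3, limma 3.58.1) by glmQLFit and glmQLFTest, two-sided, with TMM factors, no covariate beside the label, and p-values adjusted after Benjamini-Hochberg over all genes, called under 0.01. CPM are per TMM-scaled library, the standard error is the log2 fold change divided by the square root of F, and log2 CPM had a prior count of 2. With totals of 16017565 to 20361144 counts, 3 counts equal 0.119 to 0.242 CPM, and this covers counting error only. Replicates of a group differed by more than sampling noise (17.2 to 42.7 in chi-square per degree of freedom). The script was tested on simulated data.

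The cathepsins, the gene lists, the motifs and the rule for named genes (all 10 members, listed partners, up to 2 genes in each direction past the threshold per list, up to 2 of largest change per marker list, and the 3 genes nearest in pattern to the members with the highest and lowest change) were chosen with earlier results of these data known, so the counts over them are descriptions. Alternatives were RLE and upper-quartile factors, library totals alone, filterByExpr, DESeq2 1.42.0, a threshold of 0.05, blocking on the replicate number, leaving out each library, and shares without division by exon width.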

Additional observations from a re-analysis of the deposited data

How the results depend on the processing

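Ctsl, Ctss and Ctsz passed as higher under every alternative run, with log2 fold changes of 3.28 to 4.05, 2.27 to 3.15 and 1.04 to 1.78. Of 140 member values under alternatives, 127 kept direction and side, 5 passed newly and 8 changed sign. With library totals alone, 7 members passed, 7 as higher, where 60.6% of all genes passed as higher. Ctsc (0.33), Ctsh (0.63), Ctsk (0.26), Ctso (0.55), Tpp1 (0.35) and Cd74 (0.62) turned positive there, and of these Ctso and Tpp1 passed as higher. That scaling moved all genes from 3303 higher and 2962 lower to 8498 and 873. Left out in turn, the libraries gave counts of 3 to 4 members called, 3 higher throughout and 0 to 1 lower. The latter was Ctsc without control replicate 4, and Ctsc also passed at 0.05. Of all 14012 genes, these left-out fits called 2596 to 3005 higher and 2600 to 2937 lower. They gave -0.0078 to 0.081 for Ctsf, -0.177 to 0.0656 for Ctsh, -0.0165 to 0.0796 for Ctsd and -0.26 to 0.14 for Cd74. Without division by exon width, Ctsl was 46.7% of member counts in the knockouts and 8.37% in the controls.

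With the replicate number as a replicate block, 3 members passed, 3 higher and 0 lower, with Ctsl at 3.38, Ctss at 2.505 and Ctsz at 1.11. Of all 14012 genes, 3215 passed as higher and 2908 as lower under the block. Same-numbered libraries correlated in their deviations by 0.03 to 0.54, and 5 of 8 were nearest to their own number. Differently numbered libraries correlated by -0.44 to 0.19. The labels do not call the numbers pairs, and the main test was unpaired for that reason. Whether the numbers mark pairs was not tested. Of the other named genes, Grn (0.70, adjusted p = 0.00727, edgeR), Lep (1.95, 0.00262) and Myh7 (3.56, 0.00502) passed newly under the replicate block, and Aif1 (1.52, 0.0172), Mmp9 (-1.92, 0.02) and Fbxo30 (0.42, 0.0114) no longer passed.

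The fewest reads limit Ctsk, with 85 to 199 counts per library, and Ctss, with 44 to 124 in the controls. Among 44 other named genes, 549 of 614 values kept direction and side, 40 lost the call, 19 gained it and 6 changed sign.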

Other observations

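Markers of other cells in the muscle gave these values, where 23.6% of all genes passed as higher and 21.1% as lower. Of the endothelial markers, 4 of 5 fell and none rose, with a median log2 fold change of -0.71 (-0.05 with library totals alone), led by Cdh5 (-0.82) and Kdr (-0.81), neither of which passed with library totals alone (-0.16 and -0.14). None of the 5 adipocyte markers passed, and their sum ran from 29.3 to 852 CPM in the controls and from 346 to 1482 CPM in the knockouts. Lep had 1.68 and Plin1 0.94, and Lep passed without control replicate 4 (3.05, adjusted p = 0.0072, edgeR). Of the satellite cell markers, 2 of 4 rose and 1 fell, with Myf5, a myogenic factor, at 1.44 and Chodl at -1.42.

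Among the neutrophil markers in the table, S100a8 rose by 6.07 to 22.8 ± 10.7 CPM from 0.366 ± 0.468 CPM (SD, n = 4 each), and its log2 fold change was 7.36 without control replicate 1, while S100a9, its usual partner, had 1.03 CPM in the knockouts and did not pass (log2 fold change 0.87), and neither did Csf3r (1.30), which passed without control replicate 1 (2.19, adjusted p = 0.0052, edgeR). Ly6g and Mpo have no row. Of the lymphocyte markers, Cd3e fell by 2.56 from 1.04 CPM (adjusted p = 0.00498, edgeR), with an adjusted p of 0.0111 to 0.0168 without any 1 of control replicates 1, 2 and 3 and knockout replicates 2, 3 and 4, and it did not pass with library totals alone (-1.89). Cd4 had 1.48 from 0.194 CPM and passed without knockout replicate 1 (1.76, adjusted p = 0.0075, edgeR) and with library totals alone (2.14), and Cd3g, Cd8a, Cd79a and Nkg7 have no row.

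Among muscle fibre markers, 6 of 9 fell and 1 rose. Mb, the oxygen store myoglobin, fell by 3.15, and the slow myosin Myh7 had 3.93 without passing, at 16.3 ± 16.8 CPM in the controls and 247 ± 219 CPM in the knockouts (SD, n = 4 each). Myh7 passed without control replicate 3 (4.90, adjusted p = 0.0092) and without knockout replicate 2 (4.33, adjusted p = 0.0013, edgeR), and on all libraries by DESeq2 (3.88, adjusted p = 0.0022) and with library totals alone (4.63, adjusted p = 0.0043).

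Of the 12 listed cathepsins without a row (Ctse, Ctsg, Ctsj, Ctsm, Ctsq, Ctsr, Ctsw, Cts3, Cts6, Cts7, Cts8 and Ctsll3), none was analysed here. No library stood apart from its group for any of the 20 member-by-group sets tested by Dixon's criterion, which by chance marks about 1 in 20.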
